A study of Mus musculus with 91 samples.

Results

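The comparison described here set the mature miRNAs of E6.5 semi-cloned wild-type embryos (WT-SC) against those of the natural control epiblast of the same stage (Con-epi). It used the 3 WT-SC libraries and the 4 Con-epi libraries, 7 of the 91 small RNA libraries of the series, chosen by their sample names, and all 1504 mature miRNAs of the count table. Of these miRNAs, 970 had a count in at least 1 of the 7 libraries and 417 had enough counts to be tested. The libraries were made by CAS-seq, a method in which Cas9 cuts adapter products out of a small RNA library before sequencing.

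Both groups carry unedited wild-type alleles and are given the same strain cross, C57BL/6 male by F1 female. Con-epi embryos came from zygotes, sired by Oct4-EGFP reporter males, that were injected with base editor mRNA without a guide RNA and transferred to recipient females. WT-SC embryos came from oocytes injected, in place of sperm, with wild-type androgenetic haploid embryonic stem cells (WT-AG-haESC), which carry a sperm genome and were grown in 2i and LIF, a medium in which the paternal H19 and IG differentially methylated regions lose methylation. The 2 groups therefore differed in the paternal genome's source, in cell culture and in the injection itself, and the share of each in a difference cannot be told apart. The labels call the WT-SC tissue a semi-cloned embryo and name no part of it, whereas the study describes E6.5 epiblast. Neither source says whether libraries of a group came from separate litters, so p-values measure the spread between these libraries, which may be technical. In such bulk material, fewer cells of a type and less miRNA per cell cannot be told apart.

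A miRNA guides Argonaute to messenger RNAs that pair with its seed, bases 2 to 8 of the mature strand, and lowers their stability and translation. The Dlk1-Dio3 region holds a very large group of mammalian miRNAs, made from long transcripts of the maternal chromosome (Meg3, Rian, Mirg and the RNA opposite Rtl1), while methylation of the paternal IG region keeps the paternal copies silent. The miR-290-295 cluster marks naive pluripotent stem cells and the miR-302 cluster, which also holds miR-367, the primed epiblast, and the main strands of both share one seed. The miR-17-92 cluster promotes proliferation, and let-7 promotes differentiation.

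The sequences below are those the comparison turned on. They are mature miRNAs from RefSeq (GRCm38.p6), 5' to 3', with the seed in capitals, and all coordinates given are of that build. The first set lists miRNAs of the Dlk1-Dio3 region, of which all but miR-127-3p passed the test. No seed is shared within the set.
miR-541-5p: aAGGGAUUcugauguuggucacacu
miR-540-3p: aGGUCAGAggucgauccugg
miR-1193-5p: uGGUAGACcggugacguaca
miR-127-3p: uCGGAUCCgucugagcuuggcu

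The second set lists miRNAs that were higher in WT-SC and lie elsewhere in the genome.
miR-203-3p: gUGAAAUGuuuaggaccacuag
miR-27a-3p: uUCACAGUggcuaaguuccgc
let-7b-5p: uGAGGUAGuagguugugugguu
miR-10b-5p: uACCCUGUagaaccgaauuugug

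The third set lists miRNAs that were lower in WT-SC, with miR-302b-3p for its seed. The seed of miR-294-3p and miR-302b-3p is AAGUGCU, and that of miR-17-5p, AAAGUGC, is the same run moved by 1 base.
miR-294-3p: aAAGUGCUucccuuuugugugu
miR-302b-3p: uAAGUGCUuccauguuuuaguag
miR-17-5p: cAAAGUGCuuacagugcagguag
miR-19a-3p: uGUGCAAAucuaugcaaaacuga

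One library stood apart. The Con-epi libraries held 281158 to 458837 counts and the WT-SC libraries 258279 to 522390, so that 3 counts were worth 5.74 to 11.6 CPM, the count scaled to one common library total. WT-SC library 3, the smallest, had a count for 444 miRNAs, against 597 to 745 in the other 6 libraries, and 60 of the 417 tested miRNAs were at 0 in it, against 0 to 7. Its most abundant miRNA was miR-541-5p, with 14.4% of the counts, whereas miR-302b-3p led the other 6 libraries with 12.3 to 20.9%. Across miRNAs its log2 levels correlated with those of the other libraries at r = 0.705 to 0.807, while those 6 correlated with each other at 0.906 to 0.983. Library 3 also differed by base composition. Over the 344 tested miRNAs with a sequence, its level relative to the mean of WT-SC libraries 1 and 2 had a median log2 difference of -1.92 for the 26 miRNAs under 36% GC and of 0.50 for the 81 miRNAs over 56% GC. The part of this difference in the results was not tested, and each result is therefore given with all 7 libraries and without WT-SC library 3. The Con-epi libraries also differed among themselves. Counts of libraries 1 and 2, and of libraries 3 and 4, were closer to each other than across these pairs. The chi-square per degree of freedom was 15.3 and 13.3 within pairs and 41.4 to 72.9 across them. Its part in the results was not tested either.

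**Figure D1:**
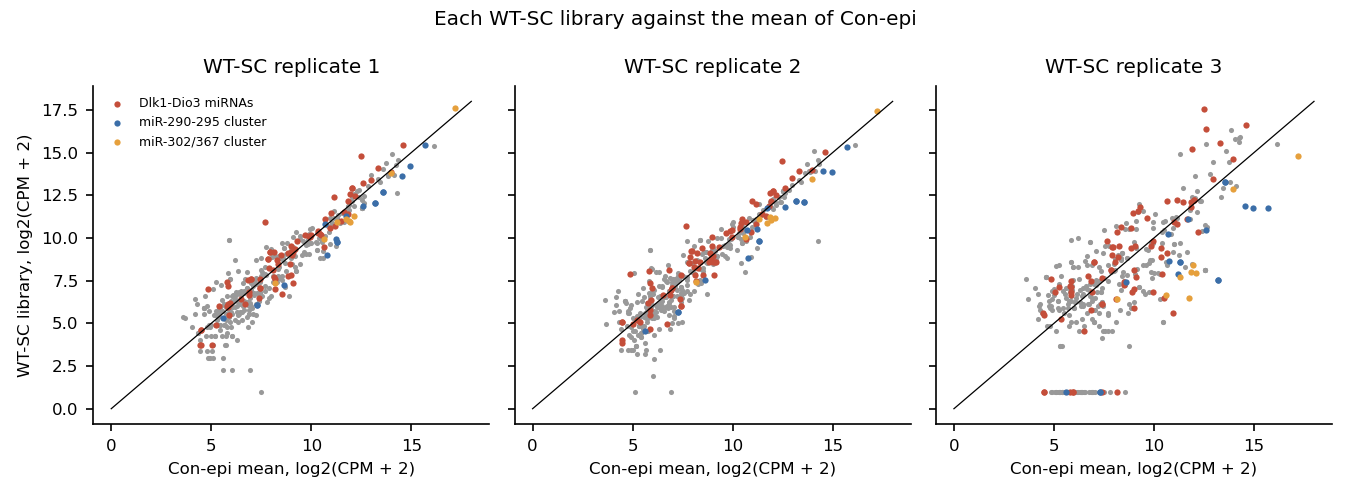
Level of each tested miRNA in each WT-SC library (vertical axis, log2 of CPM plus 2) against the mean of the 4 Con-epi libraries (horizontal axis, same unit), with cluster members coloured and the line marking equal levels. Libraries 1 and 2 follow the line with most Dlk1-Dio3 members above it and most miR-290-295 members below it, while library 3 scatters widely, with 60 of 417 miRNAs at 0.

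With all 7 libraries, 18 of 417 miRNAs passed (4.32%), 13 higher in WT-SC (3.12%) and 5 lower (1.2%). Passing meant a Benjamini-Hochberg adjusted p under 0.05 in edgeR's quasi-likelihood test and a log2 fold change beyond 0.5 in either direction. At an unadjusted p under 0.05 and the same fold there were 91 (21.8%), 50 higher (12%) and 41 lower (9.83%). Without WT-SC library 3, 42 of 469 miRNAs passed (8.96%), 26 higher (5.54%) and 16 lower (3.41%), and all 18 were among them. With library totals in place of TMM scaling, 5 passed with all 7 libraries, 5 higher and 0 lower. The 18 are fewer separate read sets, because pairs such as miR-203-3p and miR-203b-5p, or miR-292a-3p and miR-292b-5p, lie opposite each other on the same hairpin and had been given the same or nearly the same counts.

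Those 13 higher were miR-541-5p, miR-540-3p and miR-1193-5p of the Dlk1-Dio3 region, and miR-203-3p, miR-203b-5p, miR-27a-3p, let-7b-5p, miR-10b-5p, miR-185-5p, miR-1934-3p, miR-3473a, miR-3473b and miR-3473c. The 5 lower were miR-294-3p, miR-292a-3p and miR-292b-5p of the miR-290-295 cluster and miR-17-5p and miR-19a-3p of the miR-17-92 cluster. Leaving out 1 library at a time, miR-203-3p, its opposite miR-203b-5p and miR-540-3p passed in all 7 fits. miR-27a-3p passed in 4 of 7 and failed without Con-epi library 2, Con-epi library 4 or WT-SC library 2 (adjusted p up to 0.0655). miR-541-5p failed without any single Con-epi library (up to 0.124), and miR-294-3p passed only without Con-epi library 1 or WT-SC library 3. The other 12 passed only without WT-SC library 3, with adjusted p up to between 0.0895 and 0.149 in the other fits. The direction of all 18 was the same in every alternative run.

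**Figure D2:**
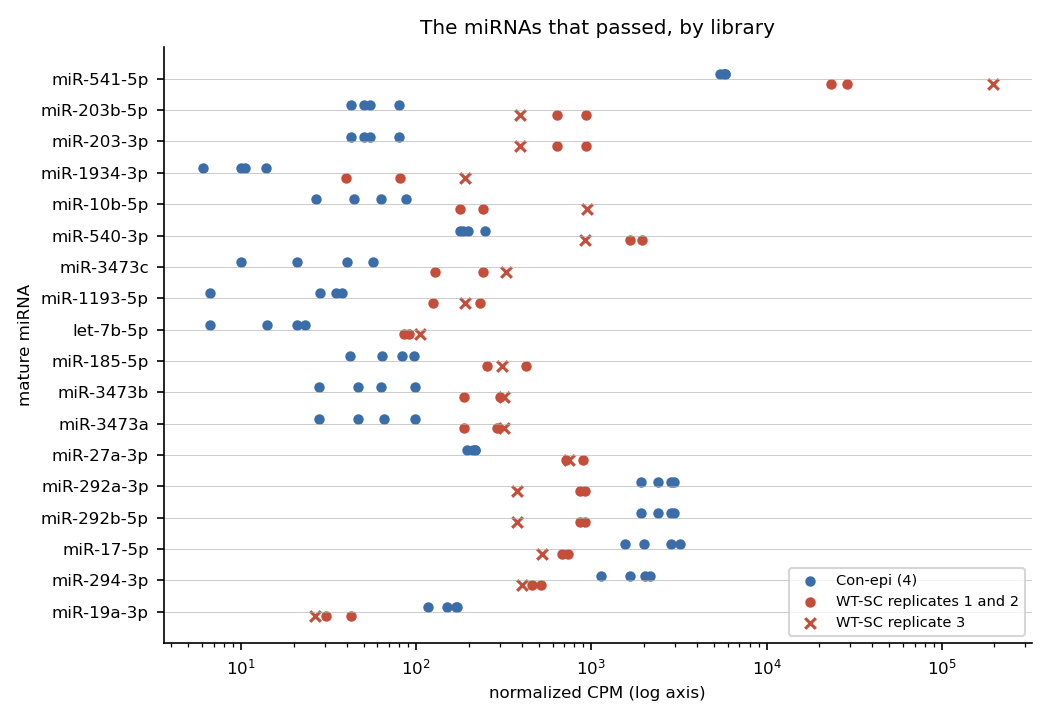
The 18 miRNAs that passed, each with its normalized CPM (horizontal log axis) in the 4 Con-epi libraries, in WT-SC libraries 1 and 2 and in WT-SC library 3 (cross). The groups do not overlap for any of the 18, and library 3 lies far above the other WT-SC libraries for miR-541-5p (195004 against 28961 and 23431).

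**Figure D3:**
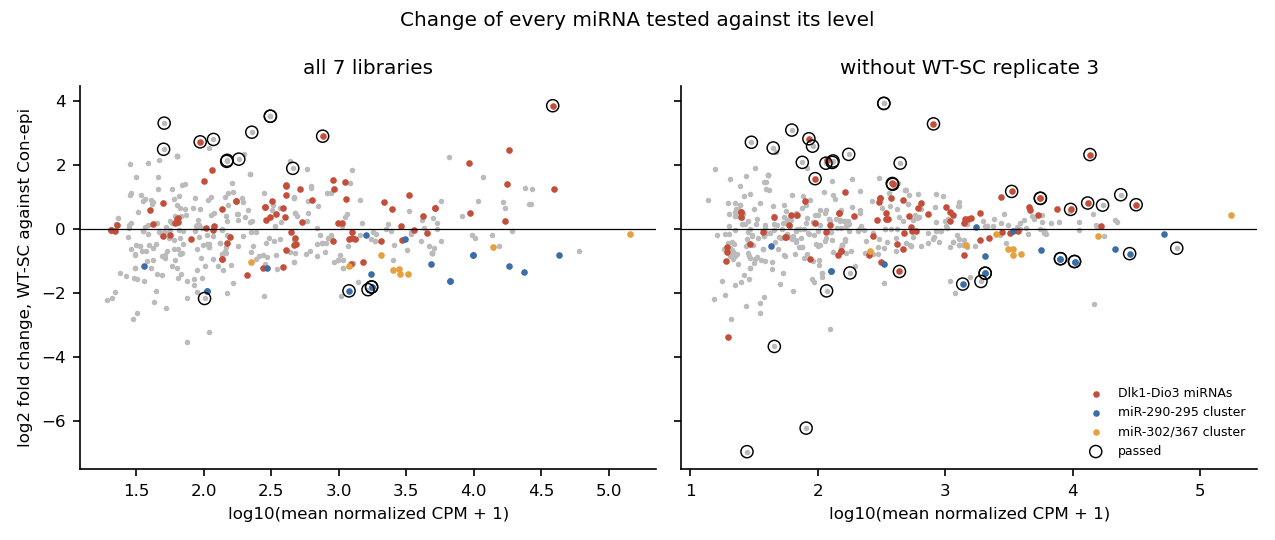
Log2 fold change of every tested miRNA, WT-SC against Con-epi, by its mean normalized CPM (log10 axis), with all 7 libraries (417 miRNAs) and without WT-SC library 3 (469). Circles mark the 18 and 42 that passed, and with all 7 libraries miR-541-5p is the highest point (3.85).

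With all 7 libraries the highest of the Dlk1-Dio3 miRNAs in fold change was miR-541-5p, and without WT-SC library 3 it was miR-540-3p (log2 fold change 3.29). miR-541-5p lies in an intron of Mirg at chr12:109742422-109742446 on the plus strand. Its normalized CPM, the CPM after edgeR's TMM scaling between libraries, was 5799, 5822, 5751 and 5440.1 in the Con-epi libraries and 28961, 23431 and 195004 in WT-SC libraries 1, 2 and 3. Every WT-SC library was above every Con-epi library, and the Con-epi libraries lay close together. The log2 fold change was 3.85 ± 0.73 (SE, adjusted p = 0.0316), or 14.5-fold, and 2.33, or 5.02-fold, without WT-SC library 3 (adjusted p = 5.42e-05). The opposite arm of the hairpin, miR-541-3p, stood at 134, 55.6, 129 and 129 against 185, 273 and 52.5, with overlapping groups and a log2 fold change of 0.62 that did not pass (adjusted p = 0.521; 1.14 and 0.133 without WT-SC library 3).

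miR-540-3p lies between Meg3 and the Rtl1 gene at chr12:109586122-109586141, plus strand. It stood at 247, 184, 198 and 177 normalized CPM in Con-epi and 1946, 1661 and 914 in WT-SC. All 3 WT-SC libraries were above the highest Con-epi library, library 3 the least so. Its log2 fold change of 2.90 ± 0.36 corresponded to 7.48-fold (adjusted p = 0.00302), and to 9.76-fold without WT-SC library 3 (adjusted p = 0.000145). Its opposite arm, miR-540-5p, had raw counts of 4, 0, 16 and 8 against 6, 4 and 3 and was too rare to test. The third to pass, miR-1193-5p at chr12:109715716-109715735, was a rare miRNA with 6.68, 34.8, 28.3 and 37.9 normalized CPM in Con-epi and 125, 231 and 189 in WT-SC, groups that did not overlap (log2 fold change 2.73 ± 0.57, adjusted p = 0.0415; 2.82 and 0.0186 without WT-SC library 3).

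The most abundant miRNA of the region, miR-127-3p, is made opposite an exon of Rtl1, a gene of placental and muscle development whose transcript it pairs with fully (chr12:109592888-109592909). It had 26753, 24472, 25223 and 23317 normalized CPM in Con-epi and 44324, 33046 and 100173 in WT-SC. Its groups did not overlap, but WT-SC library 3 was far above the others, and with all libraries it did not pass (1.25 ± 0.40, adjusted p = 0.140). Without that library it passed with a smaller fold change of 0.76 (adjusted p = 0.0186). It also passed in an edgeR fit over 23 libraries that adds related groups (1.30, adjusted p = 0.0055). miR-434-5p, also opposite Rtl1, was likewise highest in library 3, at 5819, 5808, 7431 and 5737 against 9630.1, 7841 and 85101. It passed neither in the fit of the 7 libraries (2.46, adjusted p = 0.124) nor in the one without WT-SC library 3 (0.62 and 0.0816).

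Other miRNAs that the study names in this region varied by arm. miR-409-5p stood at 4109, 3836, 3623 and 3899.9 in Con-epi and 6039.8, 4577 and 38345 in WT-SC, without overlap (2.08, adjusted p = 0.144; 0.58 and 0.100 without WT-SC library 3). The other arm, miR-409-3p, was at 16575, 17618, 14589 and 15064 against 14836, 16488 and 25453, with overlap (0.25, adjusted p = 0.656; 0.10 and 0.729 without WT-SC library 3). The groups also overlapped for miR-369-3p (0.38, adjusted p = 0.775), miR-369-5p (-0.27, adjusted p = 0.666) and miR-127-5p (-0.32, adjusted p = 0.761). None of these 5 passed without WT-SC library 3 either.

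Across the whole region, 113 mature miRNAs of the table lie between Dlk1 and Dio3, 108 had a count and 81 were tested. Of the 81, 3 passed as higher (3.7%, against 3.12% of all miRNAs tested) and 0 as lower in edgeR (2 in DESeq2), and at an unadjusted p 18 were higher (22.2%, against 12%) and 2 lower (2.47%, against 9.83%). A positive fold change was seen for 51 (63%), against 44.4% of all tested, and the median log2 fold change was 0.25 (range -1.45 to 3.85) against -0.10. Without WT-SC library 3, 12 of 84 passed as higher (14.3%, against 5.54%), 1 passed as lower (miR-667-3p), and the median was 0.38 against 0.00. The members that passed only then included miR-434-3p (0.61, adjusted p = 0.0425), miR-136-3p (0.96, 0.0275) and miR-370-3p (0.82, 0.0186). The 12 are fewer separate read sets. Among them miR-136-3p and miR-3071-5p had equal counts, and miR-337-5p and miR-3544-3p nearly equal counts. The number that passed thus rested on whether library 3 was used, and it fell to 1 without any single Con-epi library.

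Fold changes varied along the region. The 12 tested miRNAs that overlap Rtl1 had a median log2 fold change of 0.66, and 0.49 without WT-SC library 3. Of them, 0 passed with all 7 libraries in edgeR or DESeq2. At an unadjusted p, 2 were higher, as were 12% of all miRNAs tested. Without WT-SC library 3, 4 passed as higher, as did 5.54% of all, and of these 4, miR-136-3p and miR-3071-5p had equal counts. Of the 12, the arms of miR-3071 lie on the strand of Rtl1 itself and had the same counts as the arms of miR-136 opposite them. The 20 of Mirg had a median of 0.26, with miR-541-5p the sole member to pass, and the 5 of Rian 0.31 (0.35 and 0.12 without library 3). The 39 that overlap none of these transcripts had a median of 0.15 (0.38 without library 3). Of the 39, 2 passed as higher with all 7 libraries, as did 3.12% of all miRNAs tested. The 2 members that were lower at an unadjusted p were miR-770-5p and miR-543-3p. miR-770-5p, in Meg3, stood at 324, 278, 479 and 381 in Con-epi and 105, 222 and 147 in WT-SC, without overlap (-1.20, adjusted p = 0.140; -1.03 and 0.164 without WT-SC library 3). The second, miR-543-3p, stood at 1299, 1475, 1896 and 1753 against 706, 981 and 562 (-1.10, adjusted p = 0.115; -0.80 and 0.113 without WT-SC library 3). By arm, the medians were 0.27 for the 34 members from the 5p side of the hairpin and 0.25 for the 47 from the 3p side.

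As a share of all counts, which needs no scaling between libraries, the region took 14.2, 13.5, 15.2 and 13.7% in the Con-epi libraries and 21.2, 20.4 and 42.3% in WT-SC libraries 1, 2 and 3. The 3 WT-SC shares were all higher than the 4 Con-epi shares. The 95% Wilson interval of any such share was at most 0.191 percentage points to either side and covers counting error only.

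**Figure D4:**
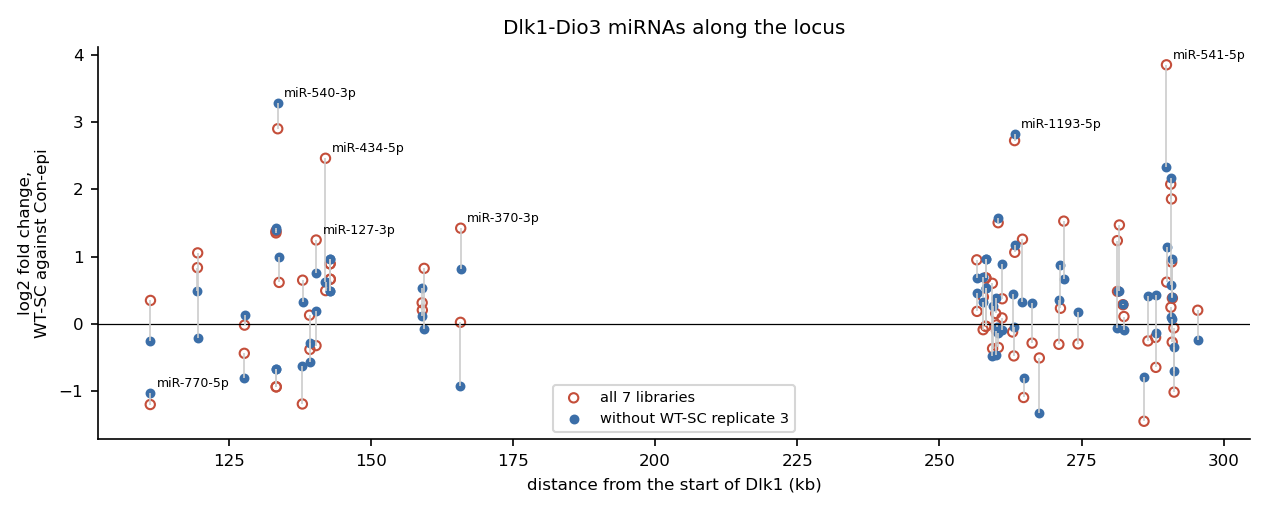
Log2 fold change, WT-SC against Con-epi, of each tested Dlk1-Dio3 miRNA by its distance from the start of Dlk1 (kb), with all 7 libraries (open circles) and without WT-SC library 3 (filled), joined by a line. Most points lie above 0 (51 of 81 with all libraries, 56 of 84 without), miR-541-5p falls from 3.85 to 2.33, and miR-540-3p moves from 2.90 to 3.29.

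Members of the miR-290-295 cluster had lower levels in WT-SC. All 18 tested had a negative log2 fold change with all 7 libraries. Of these, 3 entries passed (16.7%, against 1.2% of all miRNAs), which are 2 separate read sets, and 10 were lower at an unadjusted p (55.6%, against 9.83%). The libraries of the groups did not overlap for 13 (72.2%), with WT-SC lower, against 14.9% of all miRNAs tested. The median log2 fold change was -1.28, and -0.93 without WT-SC library 3, where 8 entries of 5 separate read sets passed (44.4%, against 3.41%). The number that passed fell to 0 or 1 when any single library other than WT-SC library 3 was left out.

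miR-294-3p, a main strand of the cluster with the AAGUGCU seed (chr7:3220691-3220712, plus strand), had 1129, 1659, 2164 and 2033 normalized CPM in Con-epi and 518, 456 and 399 in WT-SC. Each WT-SC library was below the lowest Con-epi library. The log2 fold change was -1.93 ± 0.35, or 3.81-fold lower (adjusted p = 0.0316), and -1.72 without WT-SC library 3 (adjusted p = 0.0186). The same held for miR-292a-3p, at 1927, 2399.6, 2829 and 2971 against 862, 922 and 378 (-1.81 ± 0.40, adjusted p = 0.0415; -1.38 and 0.0186).

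The more abundant members moved less once library 3 was set aside. miR-293-3p had 31400.0, 35455, 28226 and 31823 normalized CPM in Con-epi and 19087, 14963 and 3519.8 in WT-SC (-1.34, adjusted p = 0.209; -0.77 and 0.0196 without library 3). miR-291a-5p had 25224, 27550.0, 19663 and 22938 against 12890.4, 15600.1 and 3804 (-1.15, adjusted p = 0.209; -0.61 and 0.0569). miR-295-3p, the most abundant of the cluster, had 53848, 57298, 49926 and 51710.1 against 44634, 41945 and 3494 (-0.83, adjusted p = 0.482; -0.17 and 0.411). For all 3 the WT-SC libraries lay below the Con-epi libraries, and library 3 was the lowest by far. The cluster took 17.2, 19.4, 18.1 and 17.9% of the counts in Con-epi and 11.4, 11.01 and 2.73% in WT-SC.

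In the primed epiblast cluster miR-302, all 9 members tested also had a negative log2 fold change with all 7 libraries, and for 5 the WT-SC libraries lay below Con-epi without overlap (55.6%, against 14.9% of all tested). Its main strand miR-302b-3p, the most abundant miRNA of the epiblast libraries, had 143792, 120094, 158031 and 180921 normalized CPM in Con-epi and 200693, 177142 and 28153 in WT-SC. WT-SC libraries 1 and 2 were at the top of the Con-epi range or above it, and library 3 was far below all of them. It did not pass (-0.16 ± 0.58, adjusted p = 0.905; 0.45 and 0.132 without library 3). Of the 9 members tested, 0 passed in edgeR with all libraries (1 lower at an unadjusted p, 0 in DESeq2) and 0 without library 3, with medians of -1.14 and -0.61. The share of the cluster was 17.9, 14.9, 22.6 and 23.3% in Con-epi and 23.6, 21.4 and 2.73% in WT-SC.

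In the miR-17-92 cluster, which lies in Mir17hg on chromosome 14, 2 of 10 members tested were lower (20%, against 1.2% of all miRNAs), and without WT-SC library 3 there were 4 (40%, against 3.41%). Both failed when any single library other than WT-SC library 3 was left out. The median log2 fold change was -0.90 with all libraries and -0.67 without library 3. miR-17-5p, which targets the cell cycle inhibitor Cdkn1a (chr14:115043684-115043706, plus strand), had 1557, 1993, 3219 and 2851 normalized CPM in Con-epi and 737, 683 and 520.1 in WT-SC. All WT-SC libraries were below all Con-epi libraries, and the Con-epi libraries themselves spanned a wide range (-1.89 ± 0.37, adjusted p = 0.0358; -1.64 and 0.0264 without library 3). miR-19a-3p (chr14:115044048-115044070) was at 117, 149.5, 168 and 171 against 42.7, 30.5 and 26.3 (-2.17 ± 0.44, adjusted p = 0.0379; -1.93 and 0.0264). It did not pass in the fit over 23 libraries (-2.12, adjusted p = 0.0724). The most abundant member, miR-92a-3p, stood at 76749.6, 80901, 59808 and 71180.2 against 42256, 44917 and 47076 without overlap. Its 3 WT-SC libraries lay close together, and it passed only without library 3 (-0.69 ± 0.28, adjusted p = 0.209; -0.60 and 0.0273).

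Grouped by seed, the 6 tested miRNAs with AAAGUGC (miR-17-5p, miR-20a-5p, miR-20b-5p, miR-93-5p, miR-106a-5p and miR-106b-5p, from 3 related clusters) had a median log2 fold change of -1.35, and -1.56 without WT-SC library 3. The 5 with AAGUGCU, from miR-290-295 and miR-302, had -1.22 and -0.79, and the 6 with AUUGCAC, the seed of miR-92a-3p, -0.58 and -0.20. For the 5 with AGCAGCA, the seed of the growth-restraining miR-15 and miR-16, the medians were -0.96 and -0.43. Of these groups, miR-17-5p and miR-294-3p were the members that passed with all 7 libraries. The paralogous clusters of miR-106a and miR-106b had 0 of 13 members passing in edgeR (3 lower at an unadjusted p, 23.1% against 9.83% of all tested, and 3 lower in DESeq2), with a median of -0.49.

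Of the miRNAs outside these clusters, miR-203-3p had the largest fold change among those that passed. This miRNA of stratified epithelia restrains stemness through p63 (chr12:112130927-112130948, plus strand, outside the Dlk1-Dio3 region on the same chromosome). It had 50.1, 79.99, 54.6 and 42.1 normalized CPM in Con-epi and 927, 637 and 389 in WT-SC. Even the lowest WT-SC library was far above the highest Con-epi library. The log2 fold change was 3.53 ± 0.42, or 11.5-fold (adjusted p = 0.00302), and 15.2-fold without library 3 (adjusted p = 0.000145).

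miR-27a-3p, an inhibitor of fat cell differentiation made with miR-23a and miR-24 (chr8:84208727-84208747, plus strand), had 217, 212, 196 and 217 normalized CPM in Con-epi and 714, 895 and 746 in WT-SC. Both groups were tight and far apart (1.90 ± 0.28, 3.73-fold, adjusted p = 0.00950; 2.06 and 0.00191 without library 3). miR-185-5p stood at 63.5, 41.7, 82.9 and 96.9 against 421, 253 and 310.0, also without overlap (2.18 ± 0.41, adjusted p = 0.0316; 2.33 and 0.0186). miR-10b-5p, made beside Hoxd4 in the Hoxd gene cluster (chr2:74726074-74726096), was at 26.7, 86.9, 62.6 and 44.2 in Con-epi and 242, 178 and 946 in WT-SC. Library 3 carried most of its mean, and the fold change fell without it (3.03 ± 0.67, adjusted p = 0.0415; 2.06 and 0.0269).

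let-7b-5p, one of the let-7 miRNAs that silence pluripotency factors such as Lin28 (chr15:85707325-85707346, plus strand), was rare in both groups. Its raw counts were 2, 6, 7 and 11 in Con-epi and 30, 51 and 20 in WT-SC, which were 6.68, 20.9, 14.1 and 23.2 and 85.3, 91.5 and 105 normalized CPM. The 3 WT-SC libraries lay close together and above all Con-epi libraries, although some of the Con-epi counts were near the floor of 3 (2.49 ± 0.56, adjusted p = 0.0415; 2.53 and 0.0238 without library 3). It failed when any single library other than WT-SC library 3 was left out, and in the fit over 23 libraries (2.57, adjusted p = 0.0745). It was the 1 member of 8 tested in the let-7 family to pass (12.5%, against 3.12% of all miRNAs). The 8 share the seed GAGGUAG and had a median log2 fold change of 0.45, and the most abundant, let-7f-5p, stood at 331, 348, 196 and 183 against 464, 294 and 441 with overlap (0.60, adjusted p = 0.352; 0.66 and 0.338 without WT-SC library 3).

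The remaining miRNAs that rose were rare. miR-1934-3p was at 10.02, 13.9, 6.06 and 10.5 normalized CPM in Con-epi and 39.8, 80.7 and 189 in WT-SC (3.31 ± 0.70, adjusted p = 0.0415; 2.71 and 0.0273 without library 3). miR-3473a, miR-3473b and miR-3473c had log2 fold changes of 2.12, 2.15 and 2.80 (adjusted p = 0.0430, 0.0415 and 0.0415). miR-3473b stood at 46.8, 27.8, 99.02 and 63.2 in Con-epi and 188, 299.5 and 315 in WT-SC, and miR-3473c at 10.02, 20.9, 56.6 and 40.03 against 128, 240.3 and 326. No WT-SC library of these overlapped with Con-epi, and without library 3 the log2 fold changes were 2.08, 2.13 and 2.59. They are not 3 independent measurements, since miR-3473a and miR-3473b share a run of 16 bases and had equal counts in 5 of 7 libraries.

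Some abundant miRNAs were named for their level. miR-26a-5p stood at 16999, 16352, 17297 and 17296 in Con-epi and 30592, 34904 and 56144 in WT-SC, without overlap. It missed the threshold with all libraries and passed without library 3 (1.26 ± 0.31, adjusted p = 0.0589; 1.07 and 0.00187). miR-182-5p was at 21309, 18981, 19322 and 22384 against 23772, 20262 and 60851 (0.77, adjusted p = 0.285; 0.23 and 0.436 without WT-SC library 3). miR-99b-5p was at 15777, 16655, 13114 and 13864 against 13414, 15195 and 80415 (1.29, adjusted p = 0.235; 0.08 and 0.806 without WT-SC library 3). For both, library 3 alone stood high and the groups overlapped. For miR-5099, WT-SC libraries 1 and 2 lay below all Con-epi libraries and library 3 above them, at 24302, 24045, 12063 and 18239.6 against 6242, 911 and 49404 (-0.06, adjusted p = 0.980; -2.33 and 0.0714 without it).

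At the H19-Igf2 locus, another imprinted region, the values were low. miR-483-3p and miR-483-5p, made from an intron of the paternally expressed growth factor gene Igf2 (chromosome 7), had raw counts of 37, 77, 23 and 19 and 94, 88, 25 and 15 in Con-epi and of 1, 0 and 7 and 0, 18 and 4 in WT-SC. WT-SC was lower without overlap for the 3p arm, and the groups overlapped for the 5p arm. In edgeR neither passed with all libraries (-3.52, adjusted p = 0.209, and -3.23, adjusted p = 0.1996), and the 3p arm passed without library 3 (adjusted p = 0.0273). Both were lower at an unadjusted p and in DESeq2, and both passed as lower in a fit over 23 libraries that adds related groups (-3.57, adjusted p = 0.0345, and -3.15, adjusted p = 0.0188). miR-675-3p, made from the maternally expressed H19 RNA, had 0, 3, 6 and 0 counts against 2, 7 and 0, too few to test. miR-675-5p had a count in WT-SC library 2 alone (4 counts). Together the 4 miRNAs of this locus took 0.0458, 0.05975, 0.0121 and 0.00741% of counts in Con-epi and 0.000887, 0.00555 and 0.00426% in WT-SC. In natural extraembryonic ectoderm they averaged 0.303%. The Sfmbt2 cluster, with a mean of 19.07% in that tissue, took 6.71, 10.05, 2.59 and 2.12% in Con-epi and 3.53, 5.75 and 0.5955% in WT-SC. The part of extraembryonic tissue in these values was not tested. miR-296-3p, of the Gnas locus, stood at 544, 598, 800.3 and 813 normalized CPM against 1109.5, 1499 and 3063, without overlap, but did not pass (1.45 ± 0.40, adjusted p = 0.0878; 1.04 and 0.0548 without library 3).

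The tissue was checked against miRNA markers. The 4 epiblast markers of the miR-302 cluster summed to 129000 to 198400 CPM of the library total in Con-epi, and to 21180 (library 3), 194300 and 213500 in WT-SC. Nearly all of the sum was miR-302b-3p (208600 and 189100 CPM in WT-SC libraries 1 and 2). Without library 3 its log2 fold change was 0.45, against -0.61, -0.79 and -0.68 for miR-302a-3p, miR-302d-3p and miR-367-3p. The sum of the 4 markers was 17350 to 30710 in natural extraembryonic ectoderm (Con-exe), so library 3 lacked the epiblast marker level of the other WT-SC libraries. The 6 trophoblast markers of the Sfmbt2 cluster, however, summed to 3055 to 13790 in WT-SC, 5767 to 26530 in Con-epi and 38630 to 69680 in Con-exe, and library 3 was the lowest of the 3. For blood, endothelium, mesenchyme and endoderm markers the sums were 243.9 to 591.5, 77.44 to 248.9, 89.97 to 112.3 and 1828 to 2315 in WT-SC, and 256.9 to 300.4, 289.9 to 328.3, 55.89 to 107.2 and 745.4 to 1768 in Con-epi. The blood marker miR-223-3p and the mesenchymal marker miR-214-3p had 0 counts in all 7 libraries. No marker passed with all 7 libraries or without WT-SC library 3. In the fit over 23 libraries, the endoderm marker miR-192-5p passed as higher (0.96, adjusted p = 0.0469). The endothelium sum was lower in all 3 WT-SC libraries than in every Con-epi library (miR-126a-3p -0.79, adjusted p = 0.268; -0.51 and 0.472 without WT-SC library 3), and its part in the results was not tested. The endoderm sum was higher in all 3 WT-SC libraries, mainly through miR-192-5p (1036, 1370.2, 1162 and 596 against 1539, 1575 and 2737; 0.90, adjusted p = 0.215; 0.72 and 0.212 without WT-SC library 3), and its part in the results was not tested. The endoderm marker miR-194-5p did not rise (-0.21, adjusted p = 0.810; -0.05 and 0.964 without WT-SC library 3). The fold change of miR-375-3p was positive (1.07, adjusted p = 0.350; 1.46 and 0.183), and miR-122-5p was too rare to test. Over the whole Sfmbt2 cluster 0 of 37 members passed in edgeR, in DESeq2 or at an unadjusted p, with a median log2 fold change of -0.76, and -0.25 without library 3.

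The levels in related libraries of the series, scaled and fitted together over 23 libraries in edgeR, are given beside these for orientation. The comparisons share the Con-epi libraries, so their values are set side by side only. For WT-SC against Con-epi, calls in this fit differed from those with the 7 libraries. Those gained included miR-127-3p (1.30, adjusted p = 0.0055), miR-26a-5p (1.31, 0.00134), miR-293-3p (-1.28, 0.0188) and miR-291a-5p (-1.09, 0.0198). Those lost included let-7b-5p (2.57, 0.0745) and miR-19a-3p (-2.12, 0.0724). DKO-SC embryos came from donor cells with deleted H19 and IG regions, and Dnmt-TKO-SC embryos are semi-cloned embryos in which Dnmt1, Dnmt3a and Dnmt3b were inactivated. miR-541-5p ranged over 26733 to 31960.2 normalized CPM in DKO-SC, 27550.4 to 45194 in Dnmt-TKO-SC, 3826 to 5149 in Con-exe, 8154 to 9742 in E7.5 Con-epi and 6104 to 6378 in the donor cells. The ranges of the 3 semi-cloned groups were all above those of the natural tissues and the donor cells, and in this fit DKO-SC was higher than Con-epi (log2 fold change 2.37, adjusted p = 0.00195). For miR-540-3p the semi-cloned groups were again above the others, with 2003 to 2221, 2081 to 2685, 64.4 to 187, 489.9 to 712 and 94.8 to 102 in the same order of groups (DKO-SC against Con-epi 3.398, adjusted p = 2.32e-07).

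miR-203-3p was at 63.1 to 154 in DKO-SC, 112 to 1586 in Dnmt-TKO-SC, 85.2 to 579 in Con-exe, 26.3 to 301 in E7.5 Con-epi and 8.53 to 31.03 in the donor cells. All WT-SC libraries exceeded the DKO-SC range, but the difference did not pass (DKO-SC against WT-SC -2.67, adjusted p = 0.158). let-7b-5p was likewise at 2.21 to 4.79 in DKO-SC, below the WT-SC range without passing (-4.59, adjusted p = 0.0954), and at 35.4 to 195 in Dnmt-TKO-SC and 22.7 to 399 in Con-exe. miR-294-3p was at 692 to 796 in DKO-SC, 324 to 598 in Dnmt-TKO-SC, 149 to 224 in E7.5 Con-epi and 2043 to 2204 in the donor cells, so that the ranges of all semi-cloned groups lay between the E7.5 epiblast and the donor cells. Con-exe against Con-epi did not pass for this miRNA (-0.36, adjusted p = 0.366). The whole miR-290-295 cluster averaged 24.8% of counts in Con-exe and 18.2% in Con-epi. The Dlk1-Dio3 share averaged 22.4% in DKO-SC, 31.0% in Dnmt-TKO-SC, 13.6% in Con-exe, 13.4% in E7.5 Con-epi and 4.26% in the donor cells.

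**Figure D5:**
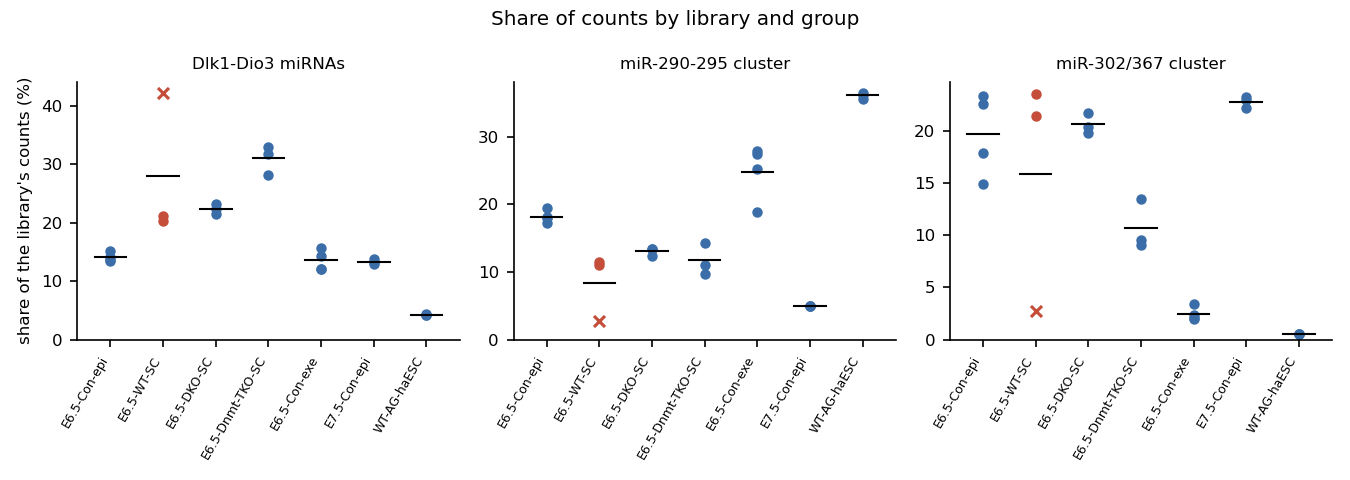
Share of each library's counts (percent, vertical axis) on the Dlk1-Dio3 miRNAs, the miR-290-295 cluster and the miR-302 cluster, by group, each point a library, the line the group mean and the cross WT-SC library 3. The WT-SC libraries lie above Con-epi for Dlk1-Dio3 (20.4 to 42.3% against 13.5 to 15.2%) and below it for miR-290-295 (2.73 to 11.4% against 17.2 to 19.4%), and for miR-302 library 3 alone is low (2.73%).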

How the data were processed

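Small RNAs were measured by CAS-seq. Per the study's methods, the authors deposited raw counts per mature miRNA, obtained after adapter trimming (fastp, version 0.20.1) by matching reads to the GRCm38 genome and to the mature entries of miRBase 21 (Bowtie, version 1.2.1.1). Reads of identical or opposite mature sequences can enter more than 1 entry, and PCR copies were not removed by molecular identifiers that the sources describe. Of 88 columns in the table, the 7 libraries compared were taken by name, and all columns were mapped (0 unmapped). The other 3 libraries of the series are in another table and were not used here.

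Counts were tested with edgeR 4.0.16 in R 4.3.3 (quasi-likelihood F test, TMM, filterByExpr by group with a minimum count of 10, no covariate), fitted on the 2 groups alone. Passing needed a Benjamini-Hochberg adjusted p under 0.05 over all miRNAs tested and an absolute log2 fold change over 0.5. Errors on fold changes are standard errors from the F statistic. A floor of 3 counts was used. Named miRNAs were the 12 highest and 12 lowest fold changes among those that passed without overlap between groups and with a mean of at least 100 CPM in the higher group, the leading members of each list, the miRNAs the study names, both arms of miR-675 and miR-483, and the 8 most abundant of each group. Lists were described by counts and medians only. The members and lists were chosen with earlier results of these data known. Of 1504 entries, 1495 matched an annotated gene by name and 1275 a RefSeq mature sequence (GRCm38.p6). Replicates were compared for copies, and none was found. Alternatives included RLE scaling, DESeq2 1.42.0, limma 3.58.1 (voom), other filters, thinning to 258279 counts, a replicate block and leaving out each library. Depth was 258279 to 522390 counts per library.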

Additional observations from a re-analysis of the deposited data

Results flagged for a closer look

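Of 74 values checked over the 4 Con-epi libraries for a library far from the other 3, 4 were flagged, and chance flags about 1 in 20. miR-434-5p was 7431 normalized CPM in Con-epi library 3, against 5819 in the nearest library, still below all WT-SC libraries. miR-541-3p was 55.64 normalized CPM in Con-epi library 2, against 128.5 in the nearest. The share of the Hox-cluster miRNAs was 0.006102% in Con-epi library 4, against 0.008732% in the nearest. The share of the blood and endothelial miRNAs was 0.1117% in Con-epi library 2, against 0.1021% in the nearest. Groups of 3 were not checked in this way, so WT-SC library 3 is described by its own values in the text above.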

How the results depend on the processing

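The number of miRNAs that passed (18; 13 higher, 5 lower) depended on the method. It was 5 (5 higher, 0 lower) with library totals alone, 48 (25, 23) with DESeq2, 39 (25, 14) without the low-count filter, 35 (26, 9) with all E6.5 epiblast and semi-cloned groups in the fit, 91 (50, 41) at an unadjusted p, 69 (33, 36) with voom quality weights, chosen after seeing the data, and 3 to 42 (3 to 26, 0 to 16) leaving out 1 library at a time. Counts thinned to the smallest library gave 3 lower. For the Dlk1-Dio3 region the number higher (3) became 6 with TMM set without the region, 8 with DESeq2, 5 without the filter, 9 with all groups, 18 at an unadjusted p, 12 with voom and 1 to 12 leaving out 1 library. Its median (0.25) became 0.35 with TMM set without the region, 0.11 with totals alone, 0.40 when thinned and 0.25 to 0.42 leaving out 1 library. For miR-290-295 the number lower (3) became 0 with totals alone, 5 with DESeq2, 5 without the filter, 6 with all groups, 10 at an unadjusted p, 14 with voom and 0 to 8 leaving out 1 library. Library totals alone moved the median of all miRNAs from -0.10 to -0.26. The cause was not tested. The number stayed within 1.5 times of 18 with RLE scaling (17), TMM set without the region (23), a mean of at least 10 counts (18), thinning (14) and 1 entry of each set of identical counts (19).

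With the replicate number as a block, 0 miRNAs passed (0 higher, 0 lower, 0 in Dlk1-Dio3, 0 in miR-290-295), against 58 at an unadjusted p. The labels do not say that a number pairs libraries, the same-numbered pairs correlated at 0.11, -0.02 and 0.05, and 1 of 3 WT-SC libraries matched its own number best. The direction of the 18 did not change in any alternative run. Depth limits the rarest: let-7b-5p rests on 2 to 51 counts a library.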

Other observations

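The X-linked germline miRNA cluster, a fast-evolving group best known from testis, leaned upwards without passing in edgeR's fits of the 2 groups alone. Of 16 members tested, 14 had a positive log2 fold change (87.5%, against 44.4% of all miRNAs tested), with a median of 0.98 against -0.10. Without WT-SC library 3 all 18 tested were positive, against 50.1% of all, with a median of 0.99 against 0.00. Among the members, miR-465a-3p and miR-465c-3p had equal counts. In edgeR 0 passed in either fit, with 4 higher at an unadjusted p (25%, against 12% of all miRNAs) and 3 higher in DESeq2 (against 25 of all 417). Its most abundant member, miR-741-3p, stood at 768, 755, 616 and 269.7 normalized CPM in Con-epi and 1286, 1038 and 4108 in WT-SC, without overlap (1.83 ± 0.56, adjusted p = 0.119 in edgeR; 1.09 and 0.124 without library 3).

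Some rare miRNAs passed only without WT-SC library 3 and were chosen after their values were seen. miR-344b-5p had 18, 16, 9 and 12 counts in Con-epi and 0 in all WT-SC libraries, which is at least 14.6-fold lower against a floor of 3 counts over the group. miR-34c-5p and miR-99a-5p were higher, with log2 fold changes of 3.09 and 2.08 (edgeR adjusted p = 0.0186 and 0.0389), and miR-150-5p was lower, with -3.67 (adjusted p = 0.0264). With all 7 libraries the values were 2.52 (adjusted p = 0.0516) for miR-99a-5p and -1.42 (adjusted p = 0.436) for miR-150-5p, and miR-344b-5p and miR-34c-5p were too rare to test. In library 3 both miR-150-5p (54.2 CPM of the library total, Con-epi 31.4 to 107) and miR-34c-5p (7.74, Con-epi 3.56 to 28.3) lay within the Con-epi range.

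In 5 further lists, no member passed with all 7 libraries in edgeR. The medians were 0.62 for the miR-183 cluster (5 tested), -0.30 for the miR-200 family (8), -0.35 for the miR-322 cluster (8), 0.09 for the miR-29 and miR-148 families (5) and -0.51 for neural miRNAs (2), and without WT-SC library 3 they were 0.23, -0.09, -0.25, 0.00 and -0.11, with miR-183-5p then passing as higher (0.75, adjusted p = 0.0186). At an unadjusted p, 1 member of the miR-183 cluster (20%) and 1 of the miR-200 family (12.5%) were higher, against 12% of all miRNAs tested. In the miR-322 cluster 1 was lower (12.5%, against 9.83%), and 0 differed in the miR-29 and miR-148 families and the neural miRNAs. DESeq2 called 0 in each list.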
